A study of Drosophila melanogaster with 35 samples.

Results

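The change that trichostatin A (TSA), a deacetylase inhibitor, brought to the DNA methylation pattern of a Dam-lamin fusion was measured on a dye-swapped pair of arrays, numbers 3686 and 3687, which are 2 of the 35 arrays of the series. Both compared methylated DNA of Dam-Lam cells grown with 100 nM TSA for 24 h before lysis with that of Dam-Lam cells grown without it. TSA was in the Cy3 channel on array 3686 and in the Cy5 channel on array 3687. The matching background pair, arrays 3690 and 3691, compared cells expressing Dam alone with and without TSA in the same way. The fit also held a pair comparing Dam-Lam with Dam, both with TSA, and 2 pairs of cells expressing Dam-Lam_delta_CaaX, a lamin without its CaaX signal, set against the same cells without TSA and against Dam, both with TSA. Dam is the adenine methyltransferase of E. coli, and Lam is the fly lamin encoded by Dm0, cloned behind Dam and a Myc tag and transfected into Kc167 cells. All groups are this 1 embryonic line, kept in BPYE medium at 23 °C. All methylation samples carry a Dam construct, while for the 2 mRNA arrays used below the labels name none. The labels do not say whether the arrays of a pair hold DNA of separate cultures or the same DNA hybridised again. If it is the same DNA, each pair is 1 sample, and the p-values below cover only the spread between hybridisations.

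The nuclear lamina is a meshwork of lamin filaments under the inner nuclear membrane. In flies and mammals it contacts broad domains of mostly silent, poorly acetylated chromatin, in which tissue-specific genes are common. Dam-Lam methylates GATC sites near the lamina, while free Dam methylates accessible DNA throughout the nucleus, so it serves as the background of the method. Histone deacetylases remove acetyl groups from histone tails, and TSA blocks the zinc-dependent classes of these enzymes.

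Values are log2 ratios of with over without TSA. Each array was centred on its median, so a gain or loss common to all genes is not in the values. Values of rows naming 1 gene were averaged, and 7089 units were tested, 6269 of them genes with a single symbol. A value above 0 is taken to mean more methylation with TSA, which assumes that channel 1 of the labels is the numerator. With that reading, the untreated Dam-Lam over Dam profile rebuilt from the TSA arrays correlated with 4 untreated arrays of another experiment across genes (Pearson r = 0.837). With the Dam-Lam pair turned round, r was -0.291. With the Dam pair turned round it was 0.71, so this comparison bears little on the direction of the Dam pair, which was taken from the labels in the same way. Turning all arrays round together would leave r at 0.837, so which channel is the numerator was not tested. Kc167 has hemocyte features, and among 12 hemocyte markers the mRNA of Hml, LanB1 and LanA lay above the 75th percentile of all measured units, while that of NimC1 and PPO1 was low. The 3 neuron markers and 4 fat body markers measured all had mRNA values below 0. Of 5 muscle markers, up had 0.59 and the others lay between -0.93 and -0.14.

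The 2 Dam-Lam arrays gave nearly the same profile. Across units their values correlated with r = 0.909, and 6122 of 7089 units (86.4%) had the same sign on both. The 2 Dam arrays correlated with r = 0.516, and 67.4% of units had the same sign. The Dam-Lam change was also wider, with an SD over units of 0.595, against 0.322 for Dam. The median absolute difference between the arrays of a pair was 0.161 for Dam-Lam and 0.229 for Dam.

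**Figure D1:**
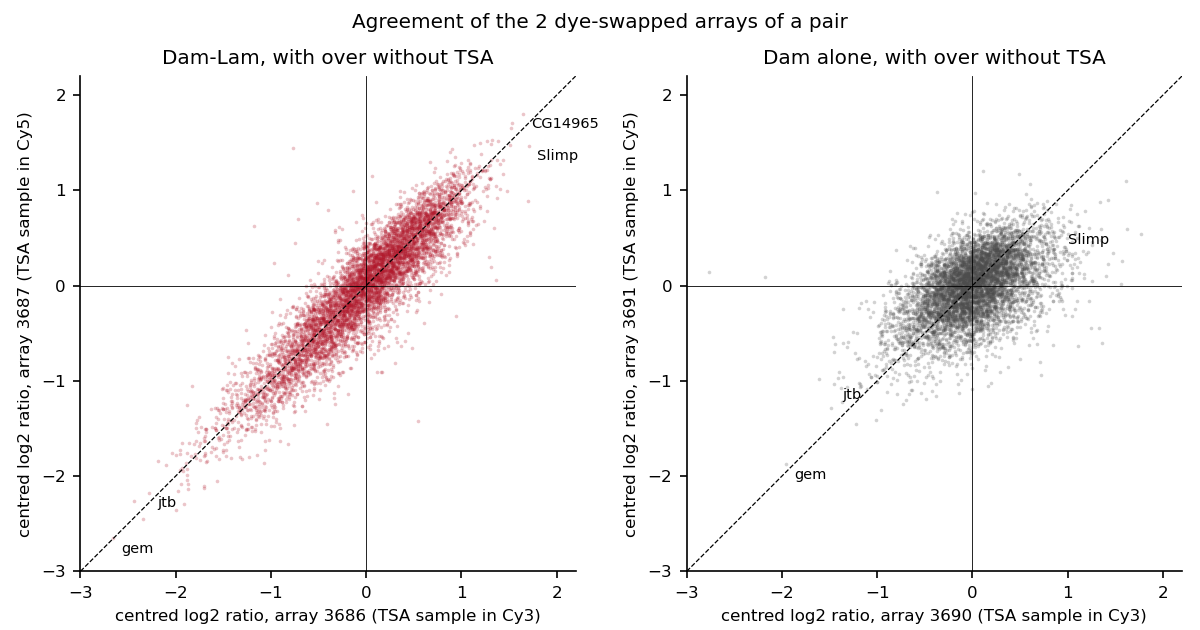
Centred log2 ratios with over without TSA of each of the 6269 genes with a single symbol on the Cy3 array (horizontal axis) and the Cy5 array (vertical axis) of a dye-swapped pair, for Dam-Lam (left) and Dam alone (right); the dashed line marks equal values. The Dam-Lam points follow the line (r = 0.909 over all 7089 units) further out than the Dam points (r = 0.516 over the same units), and gem lies at the low end of both panels.

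With TSA, Dam-Lam methylation was lower at 2379 units (33.6%) and higher at 2262 units (31.9%) at an adjusted p under 0.05 (limma, Benjamini-Hochberg over the 7089 units). Of these 4641 units, 1811 had a change smaller than 0.5 on the log2 scale. The large changes were mostly falls. A change of at least 2-fold on both arrays was seen at 380 units that fell (5.36%) and at 83 that rose (1.17%). The 1st percentile of the change was -1.60 and the 99th percentile was 1.10. Without array 3686 the counts were 1756 lower and 1498 higher, and without array 3687 they were 1733 lower and 1528 higher.

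The 15 genes with the largest falls were methylated between 3.83-fold and 6.30-fold less with TSA. The gene gem, which encodes a transcription factor of the CP2 and Grainyhead family, had -2.66 on array 3686 and -2.66 on array 3687. Its mean change of -2.66 (SE 0.12, n = 2 arrays; limma adjusted p = 3.31e-08) is a 6.30-fold fall. The Dam pair fell at gem too, with -1.96 and -1.87, and the Dam-Lam fall exceeded that of Dam by 0.74 (adjusted p = 0.00644). CG6610 had -2.34 and -2.45 in Dam-Lam, against -1.23 and -1.45 in Dam. CG12730 had -2.44 and -2.27 in Dam-Lam, against -1.38 and -1.08 in Dam. At both, the 2 pairs did not overlap, which choosing genes by their Dam-Lam falls favours. The share of all units without overlap was not counted. The gene jtb, the fly relative of a human transmembrane protein gene found at a translocation breakpoint, had -2.28 and -2.18 in Dam-Lam, against -1.46 and -1.04 in Dam.

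The next falls included genes of several unlike functions. The gene bou encodes a Ly6-type protein of septate junctions, and it had -2.0 and -2.36 in Dam-Lam, against -1.02 and -0.93 in Dam. Csp, the cysteine string protein of synaptic vesicles, had -1.91 and -2.29 in Dam-Lam, against -0.93 and -0.69 in Dam. Lnpk encodes lunapark, which shapes endoplasmic reticulum junctions, and had -1.87 and -2.14 in Dam-Lam, against -1.18 and -1.07 in Dam. RpL22-like, a germline paralogue of a ribosomal protein gene, had -1.87 and -2.08 in Dam-Lam, against -1.01 and -1.02 in Dam. The gene lin-28 encodes an RNA-binding protein that blocks let-7 maturation, and it had -1.89 and -2.04 in Dam-Lam, against -0.79 and -1.14 in Dam. Trx2, a thioredoxin, had -1.92 and -1.95 in Dam-Lam, against -1.21 and -0.77 in Dam. The remaining genes among the 15 largest falls were CG10822, CG11634, CG34331, CG11227 and CG11106, with mean changes of -2.07, -2.02, -2.01, -1.99 and -1.94. All 15 also fell in Dam, and all 15 fell by more in Dam-Lam than in Dam (limma adjusted p under 0.05 in both tests). Among all falls of at least 2-fold on both arrays these shares were 80.3% and 90.8%. The 15 were chosen by the same Dam-Lam values, which favours an excess over Dam. No unit kept a call of the difference when the arrays were scaled to the same spread.

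The largest rises were smaller, between 2.47-fold and 3.31-fold. CG14965 had 1.65 and 1.81 on arrays 3686 and 3687, a mean of 1.73 (SE 0.17, adjusted p = 3.25e-06). Its Dam arrays did not repeat each other, with 0.11 and 1.20. CG14339 had 1.53 and 1.71 in Dam-Lam, against 0.26 and 0.49 in Dam. Slimp, a mitochondrial protein related to seryl-tRNA synthetase, had 1.71 and 1.47 in Dam-Lam, against 0.92 and 0.59 in Dam. These 3 rose in both pairs, and more in Dam-Lam, with the same limits on the difference as for the falls.

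The gene tefu, the fly ATM kinase of DNA damage signalling, had 1.31 and 1.49 in Dam-Lam, against 0.20 and 0.26 in Dam. Its Dam change did not pass the test (adjusted p = 0.0926), and the difference between the pairs did (1.17, adjusted p = 0.000474). The gene pea encodes a DEAH-box helicase of splicing and had 1.27 and 1.52 in Dam-Lam, against 0.62 and 0.91 in Dam. Aatf had 1.37 and 1.32 in Dam-Lam, while its Dam arrays gave -0.003 and 0.78. CG12375 was the 1 gene among the 15 largest rises at which the Dam-Lam change was not shown to differ from that of Dam. It had 1.51 and 1.47 in Dam-Lam, against 1.43 and 0.90 in Dam (difference 0.33, limma adjusted p = 0.113). Among all rises of at least 2-fold on both arrays, 83.1% exceeded the change of Dam. The other rises were at CG14834, CG18631, CG3862, sick, CG31100, CG13771, CG13850 and CG3618, with means between 1.31 and 1.58.

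**Figure D2:**
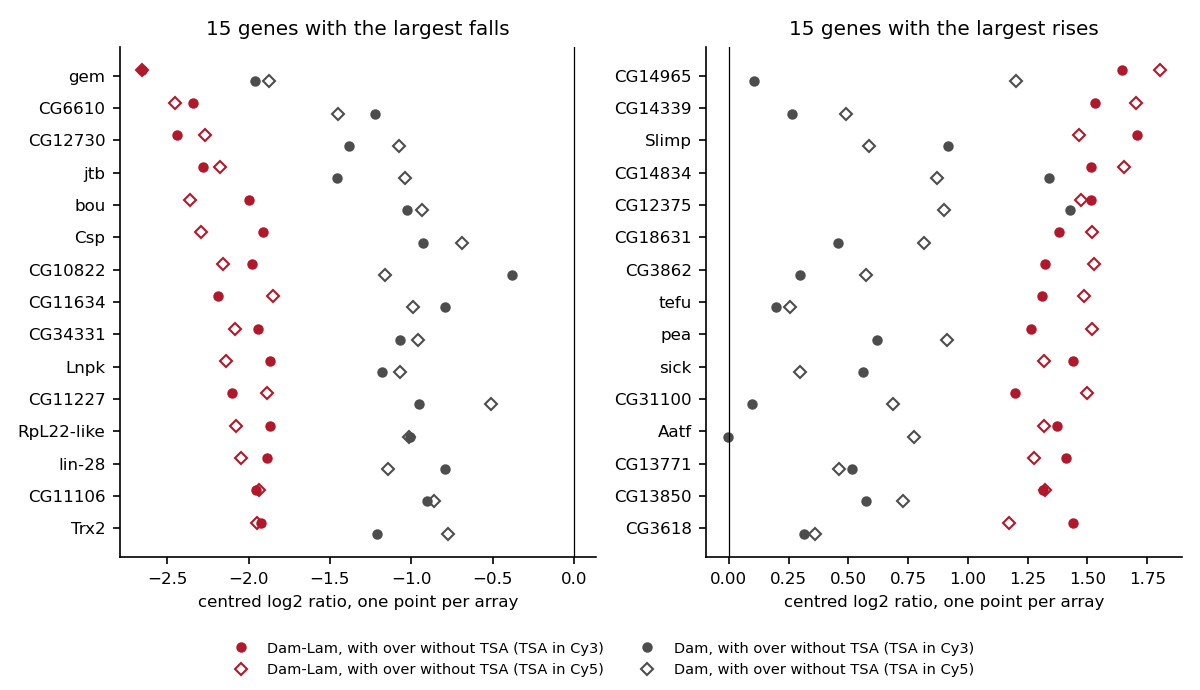
Centred log2 ratios with over without TSA for the 15 genes with the largest falls (left panel) and the 15 with the largest rises (right panel) of Dam-Lam; red points are the Dam-Lam arrays, grey points the Dam arrays, filled for TSA in Cy3 and open for TSA in Cy5. At the 15 falling genes the Dam-Lam points lie left of the Dam points without overlap, which choosing genes by their Dam-Lam falls favours. The share of all units without overlap was not counted. At CG12375, on the right, the filled Dam point of 1.43 comes close to both Dam-Lam points.

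Many Dam-Lam changes had a counterpart in Dam alone. Dam changed at 1107 units that rose (15.6%) and 1135 that fell (16%). Without array 3690 these counts were 356 and 546, and the shares that follow rest on the calls from both arrays. Across units the Dam-Lam and Dam changes correlated with r = 0.72, a description over genes measured on separate DNA samples, and with r from 0.492 to 0.777 between single arrays. Of the 2379 units at which Dam-Lam fell, Dam fell at 962 (40.4%) and rose at 28. Of the 2262 at which Dam-Lam rose, Dam rose at 850 (37.6%) and fell at 23. Among changes of at least 2-fold on both arrays, Dam fell at 305 of the 380 falls (80.3%) and rose at 66 of the 83 rises (79.5%). The median change of those 380 units was -1.31 in Dam-Lam, against -0.51 in Dam.

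The difference between the Dam-Lam and Dam changes was tested directly. It was below 0 at 1247 units (17.6%) and above 0 at 879 (12.4%). Of the 2379 falls of Dam-Lam, 1163 (48.9%) exceeded the change of Dam, and of the 2262 rises 831 (36.7%) did. These calls hold only on the scale of the deposited values. When all arrays were scaled to the same spread, 0 units differed in either direction (limma, 1121 at an unadjusted p under 0.05), and a second route to the same difference, over the untreated arrays of the other experiment, also gave 0 (limma, 1137 at an unadjusted p under 0.05 of 6856 tested). The count of calls does not give the size of the differences along this second route, and no summary of their size over all units is given. The difference at tefu was 1.16 along the second route, against 1.17 in the fit of the TSA arrays, and at bt it was -1.26, against -1.35. It was smaller at gem (-0.41, against -0.74), HDAC1 (-0.51, against -0.80) and Rbp (-0.49, against -0.99). It was larger at CG11227 (-1.80, against -1.26), wa-cup (-1.63, against -1.05) and Aatf (1.44, against 0.96). At the 6 genes with the largest excess in each direction, given below, it was smaller or of opposite sign. Without array 3686 the counts were 497 below and 219 above 0, without array 3687 they were 643 and 360, and without array 3690 they were 824 and 530.

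Within those limits, the 6 genes with the largest excess of the fall in Dam-Lam had mean Dam changes between -0.22 and -0.01. Choosing genes by this difference, in either direction, favours small or opposite changes of Dam. The gene elfless, which encodes a RING finger protein, had -1.60 and -1.72 in Dam-Lam, against 0.07 and -0.16 in Dam. CG15450 had -1.88 and -1.76 in Dam-Lam, against -0.17 and -0.26 in Dam. The scavenger receptor gene ninaD, needed for carotenoid uptake in the eye pigment pathway, had -1.71 and -1.79 in Dam-Lam, against -0.004 and -0.44 in Dam. At these 3 genes the fall was seen on both Dam-Lam arrays and the Dam change did not pass the test. CG7329 had -1.33 and -1.80 in Dam-Lam, against 0.21 and -0.35 in Dam. At CG10752 and CG13700 the 2 Dam arrays had opposite signs, 0.71 and -0.80 at CG10752 and 0.60 and -0.62 at CG13700. Along the second route the difference was -0.48 at elfless, against -1.61 in the fit, -0.89 at ninaD, against -1.53, and -0.83 at CG7329, against -1.49. At CG15450, CG10752 and CG13700 it was -1.13, -1.33 and -1.38, against -1.60, -1.51 and -1.48.

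The largest excess rises rested partly on falls of Dam or on arrays that differed. The gene mRpL37, of the mitochondrial ribosome, had 1.37 and 0.06 in Dam-Lam, against -1.46 and -0.54 in Dam, and without array 3686 its Dam-Lam change turned to -0.32. Along the second route its difference was -0.16, against 1.72 in the fit. The gene r2d2, whose protein pairs with Dicer-2 in RNA interference, had 1.06 and 1.05 in Dam-Lam, against -0.86 and 0.15 in Dam. Polr3A, the largest subunit of RNA polymerase III, had 1.09 and 1.27 in Dam-Lam, against -0.31 and 0.16 in Dam. CG3803 had 1.16 and 1.19 in Dam-Lam, against -0.58 and 0.11 in Dam. CG16812 and CG17896 had Dam-Lam means of 0.70 and 0.63 and Dam means of -0.64 and -0.64. The second route gave smaller differences at these genes too. It gave 0.34 at r2d2, against 1.41, and 0.87 at Polr3A, against 1.26. It gave 0.20 at CG3803, against 1.41, 0.29 at CG16812, against 1.34, and 0.24 at CG17896, against 1.27.

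HDAC1 is the fly Rpd3, a class I deacetylase of the kind that TSA inhibits. The methylation of its gene moved in opposite directions in the 2 pairs, with -0.42 and -0.44 in Dam-Lam, against 0.38 and 0.36 in Dam. The difference was -0.80 (limma adjusted p = 0.00171). HDAC4, a class II deacetylase, had -0.22 and -0.74 in Dam-Lam, against -0.13 and -0.19 in Dam, and the difference of -0.32 did not pass the test (adjusted p = 0.183). Lam, LamC and HDAC3 were not among the units tested.

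The Dam-Lam change ran opposite to the lamin binding of untreated cells. Untreated Dam-Lam over Dam was taken from 4 arrays of another experiment and cut into quintiles of 1371 or 1372 units. The labels do not say whether those arrays share DNA with the untreated samples here. Untreated Dam-Lam is the denominator of the change and the numerator of this binding. Part of a negative relation can therefore come from the ratios themselves, and how much was not tested. In the quintile with the highest binding the median Dam-Lam change was -0.63, with 77.4% of units lower and 2.7% higher. In the quintile with the lowest binding it was 0.45, with 7.2% lower and 67.2% higher. The 3 quintiles between had medians of 0.22, 0.04 and -0.18 from low to high binding. Dam alone ran the same way over a smaller range, with medians of 0.12, 0.07, 0.03, -0.05 and -0.17 from the lowest to the highest quintile. Across 6856 units the Dam-Lam change correlated with untreated binding with r = -0.624, and the Dam change with r = -0.289. With each untreated array used alone, r for Dam-Lam lay between -0.444 and -0.622.

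The mRNA level of untreated cells, from 2 arrays of mRNA over genomic DNA, was set beside the change in the same way. The median Dam-Lam change was -0.30 in the quintile with the lowest mRNA, then -0.07, 0.16, 0.13 and 0.02 towards the highest. The correlation across units was 0.126. Within the quintile with the highest lamin binding, the tertile of units with the lowest mRNA had a median of -0.71 and the tertile with the highest mRNA had -0.50. Within the quintile with the lowest binding these tertiles had 0.55 and 0.31.

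**Figure D3:**
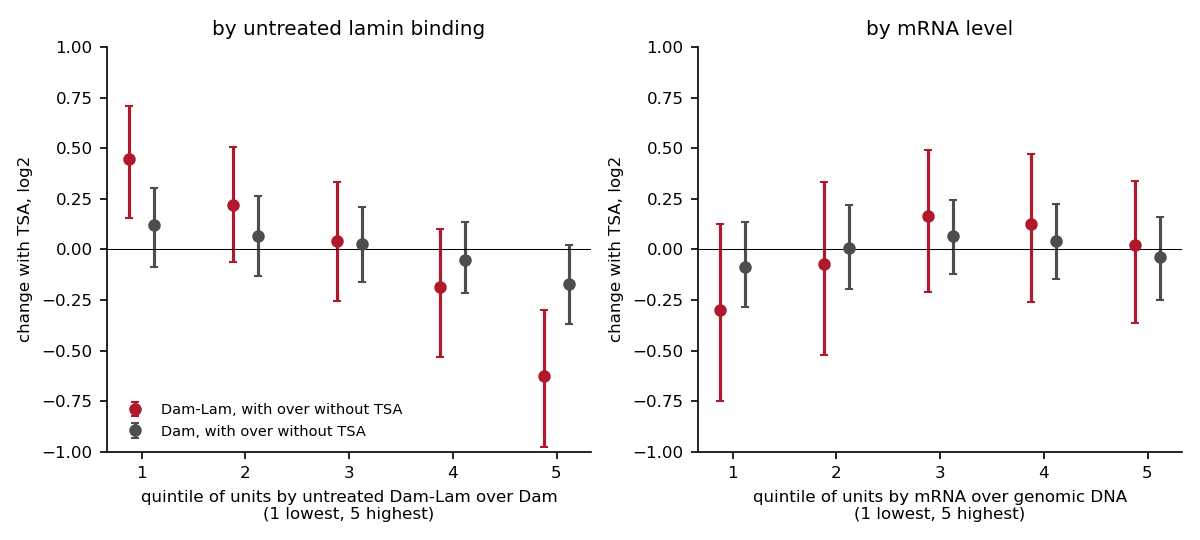
Median change with TSA (points, log2) with lower and upper quartiles (bars) in quintiles of units by untreated Dam-Lam over Dam (left) and by mRNA over genomic DNA (right), for Dam-Lam (red) and Dam (grey). The Dam-Lam medians run from 0.45 in the lowest to -0.63 in the highest quintile of binding, and those of Dam from 0.12 to -0.17.

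Gene lists of specialised tissues are described beside the background of 33.6% of units lower and 31.9% higher. The lists also differed in untreated binding, and 77.4% of units fell in its highest quintile and 67.2% rose in its lowest. Its median was 0.63 for the neuronal list, 0.54 for muscle and -0.54 for the nuclear pore, against -0.03 over all units. Not every list followed it, with -0.01 for immune response, where 12 of 18 fell, and 0.29 for serpins, where 6 of 13 rose. Whether a list differs from other units of like binding was not tested. Of 27 neuronal genes, 20 fell and 2 rose, with a median of -0.65, against a median of 0.008 over all units. The glutamate-gated chloride channel gene GluClalpha had -1.19 and -1.27 in Dam-Lam. The potassium channel gene Shab had -1.25 and -1.18. Rbp, a scaffold of the presynaptic active zone, had -1.10 and -1.25, and its fall exceeded that of Dam by 0.99 (adjusted p = 0.000821). Of the 20 neuronal genes that fell, 8 also fell in Dam and 11 fell by more in Dam-Lam, near the shares of 40.4% and 48.9% over all units at which Dam-Lam fell. The potassium channel gene sei was 1 of the 2 that rose, with 0.87 and 0.52.

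Of 27 muscle genes, 15 fell and 3 rose (median -0.40). The gene bt encodes projectin of the sarcomere and had -1.63 and -1.75 in Dam-Lam, against a Dam mean of -0.34. The gene sls, the fly relative of titin, had -1.16 and -1.29, and Act79B, an actin of tubular muscles, had -1.57 and -1.70. The 3 that rose were Mlc2, Tm2 and up, with means of 0.56, 0.52 and 0.37, all smaller than these falls. The mRNA value of Act79B was 3.44, against a median of -0.90 over the muscle list.

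Of 54 cuticle protein genes, 32 fell and 3 rose (median -0.39). Cpr12A had -1.41 and -1.28 in Dam-Lam, against a Dam mean of -0.17. Gasp, a chitin-binding protein of the tracheal matrix, had -0.92 and -1.45, and TwdlB, of the Tweedle family, had -1.05 and -1.15. Vajk4, one of the 3 that rose, had 1.01 and 0.73, and Dam rose there too. Of 14 chemosensory receptor and odorant-binding genes, 9 fell and 1 rose (median -0.56), with Obp57c at -1.46 and -1.49. Of 28 digestive enzyme genes, 16 fell and 1 rose (median -0.41). The trypsin gene zetaTry had -1.10 and -1.54, the serine protease gene Jon99Ci had -1.37 and -1.02, and mag was the 1 gene that rose, with a mean of 0.64.

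Of 44 cytochrome P450 genes, which encode oxidases of detoxification and hormone synthesis, 25 fell and 8 rose (median -0.40). Cyp6v1 had -1.78 and -1.41, Cyp6a20 had -1.44 and -1.34, and Cyp28a5 had -1.21 and -1.39. Cyp12c1 rose, with 0.75 and 0.70. Of 31 glutathione and UDP transferase genes, 17 fell and 6 rose (median -0.28). GstE6 had -1.79 and -1.50, GstE11 had -1.31 and -1.82, and GstE2 had -1.50 and -1.18. The GstE genes, like other clustered families named here, are close in sequence, and how far their array probes share signal was not tested.

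Of 42 patterning transcription factors, 25 fell and 2 rose (median -0.38). The neural precursor gene ase had -1.18 and -1.15, the limb gene Dll had -1.04 and -1.08, and wor, a Snail-type factor of neuroblasts, had -0.96 and -1.06. Dam fell at 15 of the 42, beside 16% of all units. The homeobox gene unpg rose, with 1.04 and 1.09, and so did the engrailed paralogue inv, with 0.28 and 0.31. Of 18 immune response genes, 12 fell and 2 rose (median -0.34). The gene spz, which encodes the Toll ligand, had -1.32 and -1.31. The antifungal peptide gene Drs rose, with 0.68 and 0.83, and Dam rose there too.

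Among 19 hemocyte genes, 9 fell and 3 rose (median -0.12). The phagocytosis receptor genes NimC1 (-0.74 and -1.05) and eater (-0.97 and -0.55) fell, and their mRNA values were -2.25 and -0.85. The laminin genes LanA (0.87 and 0.95) and LanB1 (0.56 and 0.40) rose, and their mRNA values were 3.54 and 3.88. Ndg, the third that rose (0.49 and 0.66), had an mRNA value of 0.88. Over all units the Dam-Lam change and mRNA correlated with r = 0.126 only. Among 13 fat body and yolk genes, 7 fell and 3 rose (median -0.37), with the lipophorin gene apolpp at -1.31 and -1.03 and the yolk protein gene Yp1 at -1.05 and -0.95. Of 36 male germline genes, 14 fell (38.9%) and 12 rose (33.3%), near the 33.6% and 31.9% over all units (median -0.02). The gene wa-cup had -1.78 and -1.81 in Dam-Lam, and achi, a homeobox gene of spermatogenesis, had 0.92 and 1.26.

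Of 22 measured genes of the nuclear pore, through which cargo enters and leaves the nucleus, 16 rose and 2 fell, with a median of 0.43. Nup75 had 0.96 and 1.06 in Dam-Lam, against a Dam mean of 0.47. Nup358, the large cytoplasmic-filament nucleoporin, had 0.99 and 0.89 in Dam-Lam, against a Dam mean of 0.04, and the difference of 0.90 passed the test (adjusted p = 0.00132). Nup107 was an exception, with -1.14 and -1.78, as was Nup44A, with -0.93 and -1.05. Of 9 lamina and envelope genes, 2 rose, 1 fell and 6 did not pass the test. MAN1, an inner nuclear membrane protein, had 1.15 and 1.04 in Dam-Lam, against a Dam mean of 0.80, a difference that did not pass (adjusted p = 0.137).

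Of 17 histone deacetylase and acetyltransferase genes, including their cofactors, 9 rose and 3 fell (median 0.29). Sirt7, a NAD-dependent deacetylase, had 0.86 and 0.83, and Mi-2, the ATPase of the NuRD complex, had 0.65 and 0.85. The 3 that fell were HDAC1, HDAC4 and CoRest, a corepressor, which had -0.38 and -0.31. Of 21 heterochromatin and Polycomb genes, 9 rose and 2 fell (median 0.14). The insulator gene Cp190 had 0.97 and 0.98 in Dam-Lam, against a Dam mean of 0.03, and HP1c had 0.69 and 0.91. The 2 that fell were Asx (mean -0.61) and the Polycomb gene Su(z)12 (mean -0.40).

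Of 38 mitochondrial ribosomal protein genes, 19 rose and 3 fell (median 0.27). The gene mRpS16 had 0.90 and 1.44 and mRpL15 had 1.11 and 1.12, while mRpL33 fell, with -1.46 and -1.44. In the other lists of general cell functions, rises and falls were closer in number. Of 52 oxidative phosphorylation genes 16 fell and 14 rose, of 30 proteasome genes 8 fell and 10 rose, and of 29 cell cycle and replication genes 8 fell and 12 rose. Cdk4 fell, with -1.27 and -1.20, and the replication factor gene RfC3 rose, with 0.94 and 0.88. Of 27 cytosolic ribosomal protein genes, 10 fell and 3 rose (median -0.03). RpL15 had -2.04 and -1.76, against a Dam mean of -0.83.

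In the proteasome list the 3 largest falls were Prosalpha4T2 (-1.06 and -1.17), Prosbeta4R2 (-1.11 and -1.10) and Rpn13R (-1.22 and -0.80). Rpt3R rose, with 1.01 and 0.87. In the oxidative phosphorylation list ND-B14.5AL had -1.19 and -1.12, ND-24L had -0.70 and -0.95, and ATPsynG, a subunit of the ATP synthase, had -1.41 and -1.51.

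**Figure D4:**
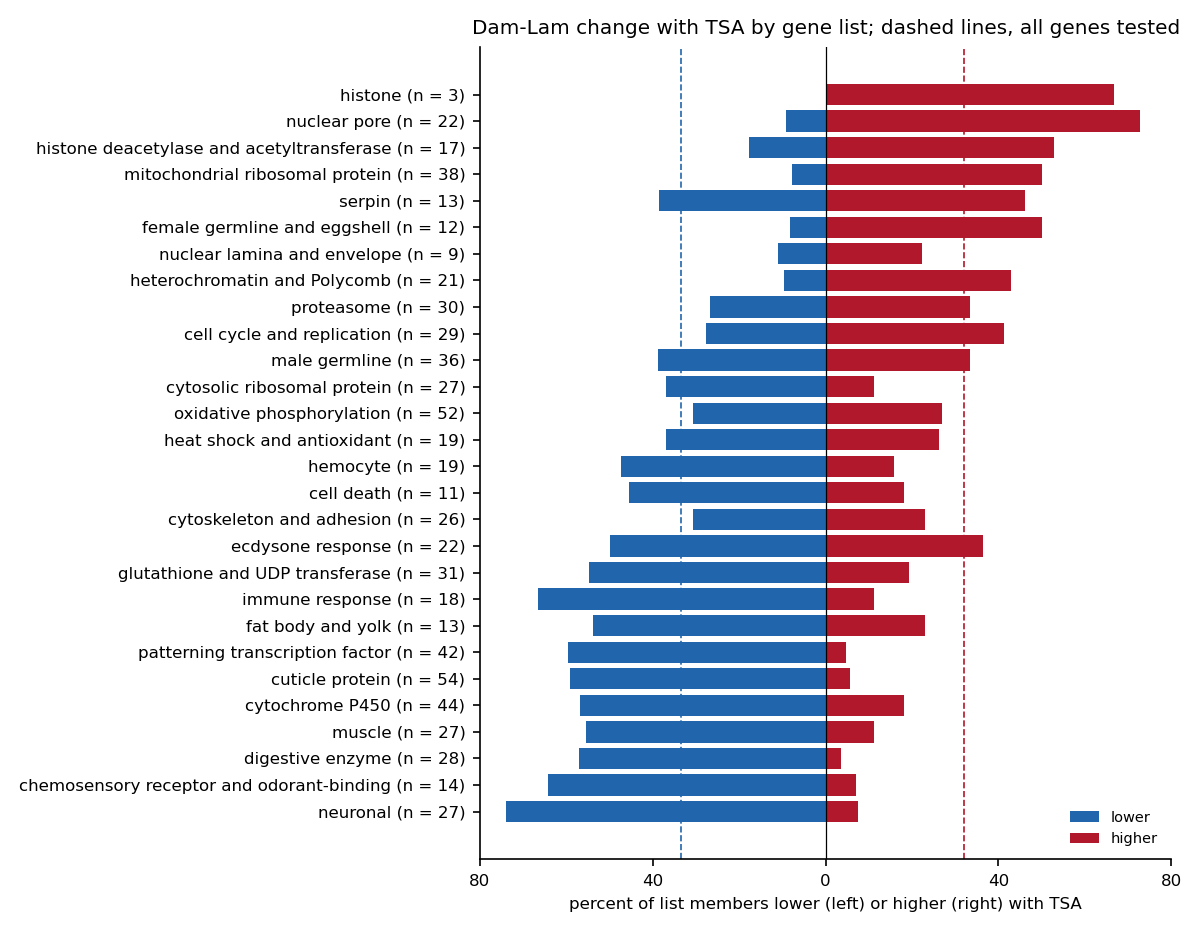
Percent of the tested members of each gene list at which Dam-Lam methylation was lower (blue, left) or higher (red, right) with TSA at an adjusted p under 0.05, with the number of members tested; lists are ordered by their median change and dashed lines give the background over all units, 33.6% and 31.9%. The neuronal list reaches furthest to the left, with 20 of 27 genes lower, and the nuclear pore list furthest to the right, with 16 of 22 higher.

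Serpins, female germline genes, histones and 4 further lists completed the 28. Of 13 serpin genes 5 fell and 6 rose, with Spn47C at -1.27 and -1.20 and Spn88Ea at 1.09 and 0.87. Of 12 female germline and eggshell genes 1 fell and 6 rose. The posterior determinant osk had 1.35 and 0.61, and Dam rose there too (mean 0.82). Of the 3 histone genes measured, the centromeric histone gene cid and the germline linker histone gene BigH1 rose, with means of 0.54 and 0.57, and Dam rose at both. Of 22 ecdysone response genes 11 fell and 8 rose, of 19 heat shock and antioxidant genes 7 fell and 5 rose, of 11 cell death genes 5 fell and 2 rose, and of 26 cytoskeleton and adhesion genes 8 fell and 6 rose. The profilin gene chic had -1.46 and -1.28, and Moe, which links actin to the membrane, had -1.23 and -0.91.

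Changes of one direction lay next to each other on the chromosomes. Across 6158 pairs of neighbouring measured genes, the Dam-Lam changes of the neighbours correlated with r = 0.35, those of Dam with r = 0.162, and untreated binding with r = 0.469. A change past 0.5 in size on both Dam-Lam arrays was seen at 1267 units that fell (17.9%) and 964 that rose (13.6%). Runs of 4 or more such neighbours numbered 50 for falls and 14 for rises, and 5 runs of falls held at least 8 genes.

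The longest run of falls had 11 neighbouring measured genes on arm 3R: CG15580, Gasp, Obp83g, CG31559 and the Osi family members Osi24, Osi2, Osi3, Osi4, Osi6, Osi7 and Osi9. The Osiris family encodes insect-specific membrane proteins of cuticle-forming tissues. The median Dam-Lam change over the run was -1.11, and the median of Dam was -0.42. Osi3 had -1.51 and -1.30 in Dam-Lam, against -0.79 and -0.34 in Dam. Osi7 had -1.36 and -1.18 in Dam-Lam, against -0.91 and -0.32 in Dam. Osi6 had -1.02 and -0.91 in Dam-Lam, while its Dam values were -0.06 and -0.08. At Osi4 the Dam arrays differed, with 0.19 and -1.02, and the Dam-Lam excess did not pass the test (adjusted p = 0.164). Dam fell at 7 of the 11 genes, and at 8 of the 11 the fall of Dam-Lam exceeded the change of Dam. Over all Dam-Lam falls these shares were 40.4% and 48.9%. Over falls of at least 2-fold on both arrays they were 80.3% and 90.8%. The members were chosen by their Dam-Lam falls, which favours such an excess.

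A run of 7 genes on the X chromosome had a larger median change, -1.60, against -0.22 in Dam. It ran over Cyp6v1, CG1835, CG1324, CG15450, CG1314, CG11227 and Ser6, a serine protease gene. CG11227 had -2.10 and -1.89 in Dam-Lam, against -0.95 and -0.51 in Dam, and CG1314 had -1.51 and -1.72 in Dam-Lam, against 0.19 and -0.58 in Dam. At all 7 the fall of Dam-Lam exceeded the change of Dam. This was so at 48.9% of all Dam-Lam falls and at 90.8% of those of at least 2-fold on both arrays. Choosing runs by their Dam-Lam falls favours such an excess. Untreated Dam-Lam over Dam had a median of 1.23 in this run and 0.81 in the Osi run. A second run on 3R held 4 Tweedle cuticle genes, TwdlM, TwdlB, TwdlL and TwdlN, with Dam-Lam means of -0.74, -1.10, -0.82 and -0.74. On 2L a run of 9 genes held CadN, the neuronal cadherin (-0.82 and -1.0), together with elfless and ninaD.

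**Figure D5:**
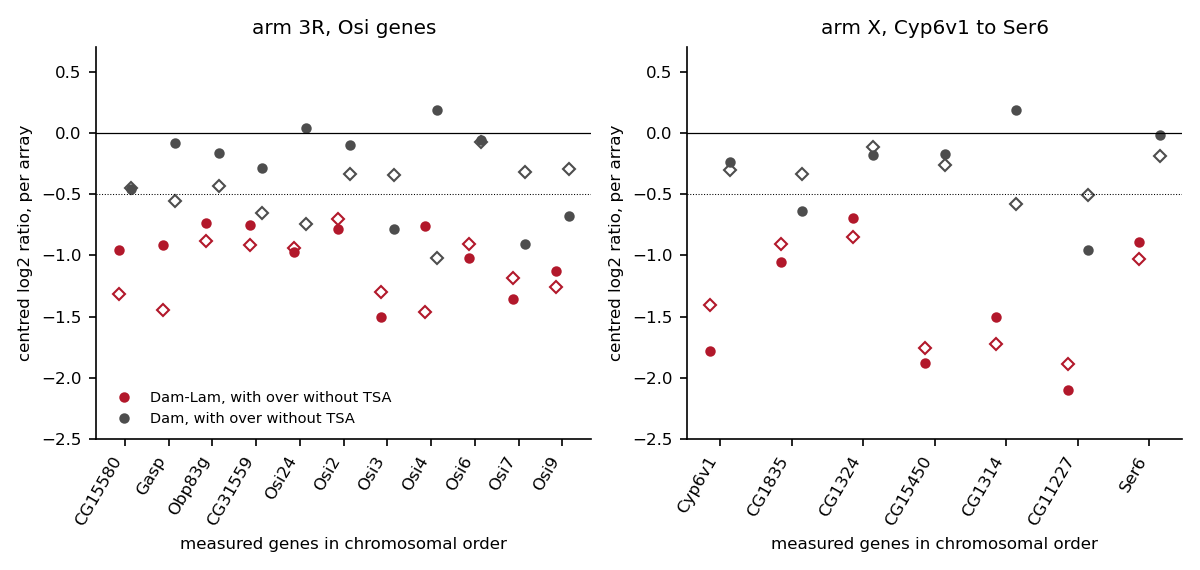
Centred log2 ratios with over without TSA on each array for the genes of the 11-gene run on 3R (left) and the 7-gene run on the X chromosome (right), in chromosomal order without distances; red points are Dam-Lam arrays, grey points Dam arrays, filled for TSA in Cy3 and open for TSA in Cy5, and the dotted line marks -0.5. All Dam-Lam points lie below the dotted line because runs were chosen by that limit on both Dam-Lam arrays; the Dam values were not used in the choice, and most Dam points lie above the line.

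The longest run of rises had 7 genes on 3R from CAHbeta to tgo, with a median of 0.75 in Dam-Lam and 0.39 in Dam. CG31100 had 1.20 and 1.5 in Dam-Lam, against 0.10 and 0.69 in Dam. The gene tgo, the common partner of bHLH-PAS transcription factors, had 1.04 and 0.76 in Dam-Lam, against 0.22 and 0.43 in Dam. At CAHbeta, a carbonic anhydrase gene, the Dam-Lam values of 0.51 and 0.59 lay within those of Dam, 1.04 and 0.06.

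The medians of the 5 large chromosome arms lay between -0.01 and 0.06, with 32.2% to 34.4% of genes lower and 27.7% to 35.5% higher. The small chromosome 4, which is largely heterochromatic in character, had a median Dam-Lam change of -0.47 over 38 genes, and 24 of them fell (63.2%) and 4 rose (10.5%). Its median was -0.60 on array 3686 and -0.47 on array 3687. The Dam median was -0.24. At 14 of the 38 the difference between the Dam-Lam and Dam changes was called below 0, beside 17.6% of all units. Untreated Dam-Lam over Dam had a median of -0.01 there, close to the middle of the genome. The falls were led by CG32006 (-1.56 and -2.05), bt, the GABA transporter gene Gat (-1.32 and -1.36) and apolpp. The 4 rises were eIF4G1 (0.66 and 0.38), CG33521 (0.47 and 0.48), Ephrin (0.41 and 0.52) and 4E-T, whose arrays differed (-0.01 and 0.60).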

How the data were processed

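The values are log ratios of the 2 channels as the authors deposited them, read here as log2. Limma was used to make them, per the submitters' processing notes. The sources used here do not give its version, the background correction, the normalization, the log base or the direction of the ratios. No spot intensities were used, so precision is limited by the number of arrays. Values were centred within each array on the median. The probe table gave 1 gene for 7843 of 9006 rows, and such rows were averaged by gene. Units with values on under 75% of arrays were left out. Gene order came from the reference annotation, Release 6.

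The 10 TSA arrays (5 dye-swapped pairs) were fitted as 1 model of 6 DNA samples with a gene-wise dye term (lmFit and eBayes of limma 3.58.1, R 4.3.3). The Dam-Lam estimate comes from arrays 3686 and 3687 alone. The 4 residual degrees of freedom come from within-pair differences of all 5 pairs. Tests were two-sided, with Benjamini-Hochberg adjustment over 7089 units. On simulated data for the Dam-Lam change, 200 of 7089 units were changed. Of these, 57% of changes of 0.5 and 94% of changes of 1 were recovered, with 8 false calls. The noise was drawn from the residual spread of the same fit, so it holds no spread between cultures beyond that. With 4641 units called in the data, these rates do not carry over to the real calls.

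Genes named are the 15 largest called changes in each direction with 1 symbol and the same sign on both arrays, up to 3 called members per list and direction, up to 6 per direction by Dam-Lam minus Dam change, and Lam, LamC and HDAC1, HDAC3 and HDAC4. Not all list members so chosen are given. Run members and chromosome 4 genes were named after their values were seen. The members and the 28 lists were chosen with earlier results of these data known. Entries that matched unintended genes by name (a symbol-ending pattern and alphaTub84D in the male germline list, fat in the cytoskeleton and adhesion list) were dropped after the data were seen. Alternatives were no centring, no dye term, complete rows, single rows, fewer arrays, equal spread, stricter calls, each array left out, and a second route over untreated arrays. GATC sites in promoters were not analysed here.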

Additional observations from a re-analysis of the deposited data

Results flagged for a closer look

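The Dam-Lam change differed from the Dam change at 1247 units below 0 and 879 above 0 (limma, adjusted p under 0.05), and no unit kept that call when arrays were scaled to the same spread. Among named genes, a difference between the Dam-Lam and Dam changes drew attention at 6 genes below 0 on both Dam-Lam arrays: elfless (-1.61), CG15450 (-1.60), ninaD (-1.53), CG10752 (-1.51), CG7329 (-1.49) and CG13700 (-1.48). It did so above 0 at mRpL37 (1.72), r2d2 (1.41), CG3803 (1.41), CG16812 (1.34), CG17896 (1.27) and Polr3A (1.26). At 6 of the named genes both arrays of one pair opposed both arrays of the other. Of those given above, mRpL37, CG16812 and CG17896 had values above 0 in Dam-Lam and below 0 in Dam. HDAC1 fell in Dam-Lam and rose in Dam (difference -0.80). Cht10, a chitinase gene, had 0.31 and 0.59 in Dam-Lam, against -0.23 and -0.52 in Dam (difference 0.83). RpL17 had 0.49 and 0.45 in Dam-Lam, against -0.01 and -0.06 in Dam (difference 0.50).

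Untreated Dam-Lam over Dam was checked for an array far from the others at 44 named genes with values on 4 arrays, and 5 had one; chance alone gives about 1 in 20. At CG12375 one array had -1.28 and at Aatf one had -2.4, each the lowest of the 4. At CG13850 the highest array had 0.00 and at CG6610 it had 1.32, while the lowest array of CG15450 had 1.07. The arrays behind the TSA changes come in groups of 2 and were not checked in this way.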

How the results depend on the processing

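Counts are given as lower and higher. For the Dam-Lam change, scaling the arrays to the same spread gave 1502 and 1221, and asking also for a change of at least 0.5 gave 1553 and 1277. With each array left out the counts ran from 1733 to 2489 and from 1498 to 2429, and other settings stayed within 1.5 times of 2379 and 2262. For the Dam change, an adjusted p under 0.01 gave 591 and 477 and a change of at least 0.5 gave 443 and 334; with each array left out they ran from 546 to 1188 and from 356 to 1177, the lowest without array 3690. For the difference of the changes, an adjusted p under 0.01 gave 645 and 337, equal spread gave 0 and 0, and the second route gave 0 and 0. With each array left out they ran from 497 to 1331 and from 219 to 974.

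The median Dam-Lam change in the lowest quintile of untreated binding was 0.41 without centring and 0.40 with equal spread, and 0.43 to 0.45 with an array left out. That of the highest quintile was -0.55 with equal spread, and -0.67 to -0.61 with an array left out. Chromosome 4 had -0.60 to -0.47 with an array left out. Of the 186 named genes, 28 lost the call with equal spread, 22 when a change of at least 0.5 was asked for, 20 without array 3686 and 19 without array 3687, and at most 7 under any other setting. The gene mRpL37 turned to -0.32 without array 3686 and had 1.74 without array 3687. Its difference from Dam turned to -0.16 along the second route, and the cause was not tested. The medians of all 28 lists kept their sign without centring and with equal spread. No paired analysis was possible because the arrays carry unique numbers that no 2 groups share.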

Other observations

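The same experiment held a pair of arrays for a lamin without its CaaX membrane-targeting signal, with over without TSA. That pair shares no DNA with the Dam-Lam pair, and no test of the difference between them is given. Of the 380 units with a Dam-Lam fall of at least 2-fold on both arrays, 273 also fell there (limma, adjusted p under 0.05). Their median was -1.31 in Dam-Lam and -0.72 in the CaaX-deleted lamin. Over all 2379 Dam-Lam falls, 1280 also fell there. Several genes with the largest Dam-Lam falls had values there of similar size. The gene gem had a mean of -2.66 in Dam-Lam and -2.53 in the CaaX-deleted lamin, CG12730 had -2.35 and -2.45, jtb had -2.23 and -2.28, lin-28 had -1.97 and -2.22, and Trx2 had -1.94 and -2.12. Their untreated Dam-Lam over Dam means were -0.31 ± 0.74, 0.20 ± 0.23, 0.91 ± 0.56, 0.38 ± 0.62 and 0.37 ± 0.20 (SD, n = 4 arrays). Other genes had large falls in Dam-Lam beside small values in the CaaX-deleted lamin. CG11227 had -1.99 in Dam-Lam and -0.21 in the CaaX-deleted lamin, CG15450 had -1.82 and -0.29, elfless had -1.66 and -0.17, and ninaD had -1.75 and -0.51. Their untreated binding was 2.25 ± 0.13, 1.45 ± 0.25, 1.04 ± 0.11 and 1.26 ± 0.18 (SD, n = 4 arrays). Not all genes of such binding had small values there, as spz, with binding of 1.13 ± 0.29, had -1.32 in Dam-Lam and -1.27 in the CaaX-deleted lamin. Over the quintile of units with the highest untreated binding, the median change was -0.63 in Dam-Lam and -0.02 in the CaaX-deleted lamin.

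Dam-Lam over Dam measured with TSA had an SD over units of 0.323, against 0.57 for the untreated arrays of the other experiment, and the profiles correlated across units with r = 0.644. In quintiles of untreated binding its medians ran from -0.18 to 0.39.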
